A study of Mus musculus with 12 samples.

Results

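In mouse small-intestinal epithelium at E14.5 (days of embryonic development), 2182 autosomal stretches carried called H3K27me3 in both replicate libraries and in no library of the other populations. Chromatin immunoprecipitation and sequencing (ChIP-seq) had been run on 4 sorted populations with 2 libraries each, described as biological duplicates. These were epithelium positive for EpCAM from E14.5 embryos, the same epithelium at E12.5, adult intestinal stem cells sorted for high Lgr5-EGFP (ISC, which sit at the bottom of the crypts and renew the epithelium) and absorptive enterocytes of adult villi (AE). All mice had a mixed C57BL/6 and CD1 background. The adult cells came from males at postnatal day 60 that carried the Lgr5EGFP-Cre-ERT allele, which marks stem cells by green fluorescence, whereas no sex, transgene or pooling was given for the embryos. Cells carrying the endothelial marker CD31 or the blood-cell marker CD45 were gated out in the embryonic and adult sorts.

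The authors deposited 1 list of enriched islands per ChIP library on build mm9. An island is a run of enriched 200 bp windows with small gaps bridged, and its borders fall on a fixed 200 bp grid. A window was kept when both E14.5 lists covered it and none of the 6 other lists did, and adjacent kept windows were merged. The stretches were thus chosen by the island calls themselves: their presence at E14.5 and absence elsewhere is a description, and no test was made of it. Both E14.5 lists together covered 6617 autosomal stretches, and 28824 were covered in any of the 8 lists. A window without a call can still carry some of the mark. Gene names are not in the lists, so the stretches are given by coordinate, and the labelled cell types were not checked against marker genes.

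H3K27me3 is the trimethylation of lysine 27 on histone H3. It is placed by the Polycomb repressive complex PRC2, whose catalytic subunit is EZH2, and it accompanies repression of developmental regulators that a tissue does not use. The EED subunit binds the finished mark and stimulates the enzyme, so the mark can spread into broad domains with soft borders. In the mouse gut, the epithelium is a pseudostratified tube at the earlier embryonic age, and villi begin to emerge at about the later one.

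The E14.5 lists held 8185 and 9940 islands over 75.9 and 109 Mb, with 3020599 and 2999884 ChIP reads inside them. The 6 other lists covered 60.8 to 241 Mb with 1171968 to 6627853 ChIP reads in islands. Total reads per library are unknown. The control library that both E14.5 replicates share puts the whole ChIP library of replicate 1 at 1.63 times that of replicate 2. ISC replicate 1 stood apart from all others in the extent of calling (241 Mb, against 60.8 Mb in ISC replicate 2).

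The E14.5-only stretches came to 4.91 Mb. That was 8.8% of the 55.8 Mb of autosomal length that both E14.5 lists covered. The same rule gave 521 stretches and 1.48 Mb at E12.5 (6.43% of the length in both lists), 2247 stretches and 6.70 Mb in ISC (13.5%), and 836 stretches and 1.796 Mb in AE (4.11%). These shares depend on how much each list called, and no test of their differences was made. The extent of the set depended on the libraries. Leaving out a list can only add length under this rule, so only the size of the rise could vary. Without E14.5 replicate 1 there were 6176 stretches with 22.3 Mb (21.1%), and without E14.5 replicate 2 there were 3987 with 13.1 Mb (17.8%). Without ISC replicate 1 there were 3628 stretches with 8.83 Mb (15.8%), without E12.5 replicate 2 there were 2503 with 8.04 Mb (14.4%), and with islands of an FDR of 1e-10 or less in all lists 1396 with 4.02 Mb.

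Lengths were short. The median stretch spanned 1.6 kb, and the quartiles were 0.6 and 3.4 kb. The longest stretch was 15.8 kb. A single window made up 271 stretches, 1448 were 1 kb or longer, 247 were 5 kb or longer and 24 reached 10 kb. The 218 longest held 31.5% of the length. Medians elsewhere were 2.4 kb for E12.5-only, 2.2 kb for ISC-only and 1.6 kb for AE-only stretches. Stretches of 5 kb or more made up 11.3% of the E14.5-only set, 15.4% of the E12.5-only, 22.3% of the ISC-only and 8.49% of the AE-only set.

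**Figure D1:**
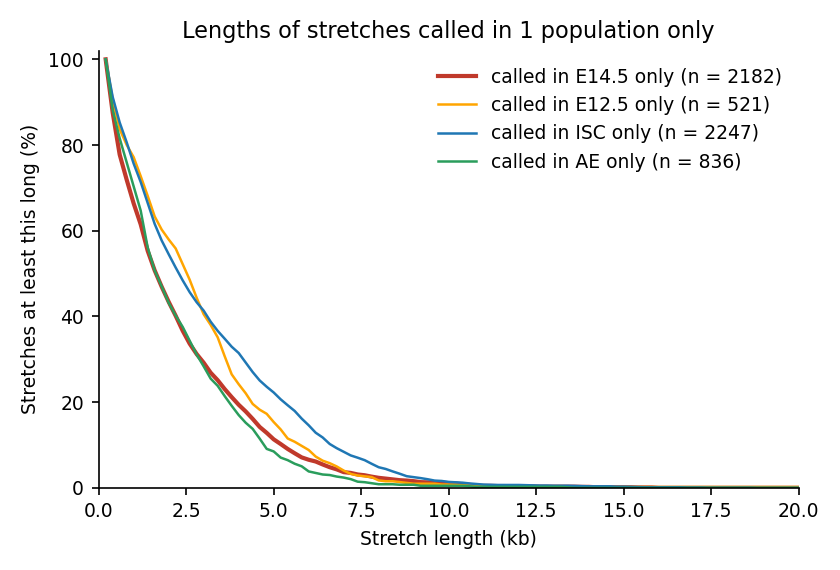
Share of stretches (vertical axis, percent) that are at least as long as the value on the horizontal axis (kb), for stretches called in both libraries of 1 population and in no other library. The E14.5-only curve starts near the AE-only one, with a median of 1.6 kb in each, and the ISC-only curve lies above both; a single E12.5-only stretch of 83.2 kb falls beyond the axis.

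Most stretches were margins of E14.5 islands, next to a window that at least 1 library of another population also called. At 42.8% of the 4364 stretch ends, both E14.5 islands ran on and such a window came next. Mostly that window was called in 1 library alone, which was E12.5 replicate 2 at 907 ends and ISC replicate 1 at 466. At 32.0% of all ends the island of replicate 1 stopped while that of replicate 2 went on, and at 20.0% the reverse held. Both E14.5 islands stopped at the same window at 5.20% of the ends. By position, 1449 stretches (66.4%, 2.35 Mb) had 1 end against a called window and lay at the edge of an E14.5 overlap, and 210 (9.62%, 0.345 Mb) lay between called windows on both sides. Another 181 stretches (0.662 Mb) filled an E14.5 overlap whose islands met another population outside that overlap, in some cases directly beside it.

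The remaining 342 stretches (15.7%) stood free: the islands around them in both E14.5 lists touched no island of another population. They held 31.5% of the length, 1.55 Mb, with a median of 4.2 kb. The corresponding shares were 48.4% of the E12.5-only, 19.8% of the ISC-only and 30.3% of the AE-only stretches, and these differences were not tested. Together, free-standing stretches and whole overlaps made 523 of the 6617 stretches in both E14.5 lists, or 7.9%. The free-standing share rested most on E12.5 replicate 2: without that library it was 34.1%, and without E14.5 replicate 2, whose islands then no longer had to be free as well, it was 30.3%.

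**Figure D2:**
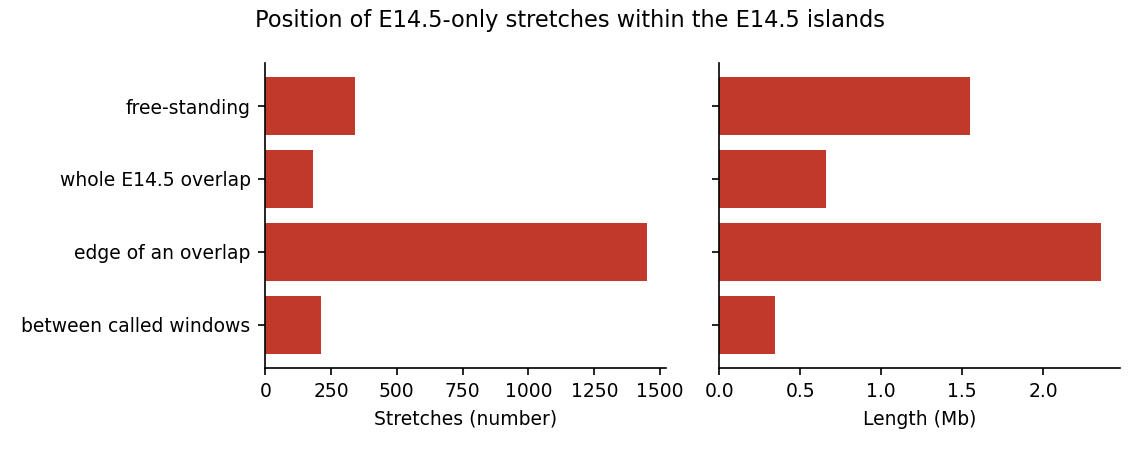
Number of E14.5-only stretches (left, horizontal axis) and their summed length (right, horizontal axis, Mb) by position within the E14.5 islands, from free-standing at the top to stretches between called windows at the bottom. Edges lead in number with 1449 stretches, while the 342 free-standing stretches hold 1.55 Mb.

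The library met most often at these margins was E12.5 replicate 2. Of the 1869 ends that ran into a window called elsewhere, 53.5% met E12.5 replicate 2, 6.69% E12.5 replicate 1, 29.5% ISC replicate 1, 4.07% ISC replicate 2, 7.17% AE replicate 1 and 8.24% AE replicate 2. The order of these shares differed from the order of how much of the remaining E14.5 overlap each list covers. E12.5 replicate 2 covered 69.4% of that 50.9 Mb and stood at 999 such ends, whereas ISC replicate 1 covered 85.2% and stood at 551. Taken over whole islands, the islands around 625 stretches (28.6%) touched E12.5 and no adult population, those around 254 (11.6%) an adult population and not E12.5, and those around 961 (44.0%) both. E12.5 replicate 2 alone was touched around 527 stretches, against 15 for E12.5 replicate 1. E12.5 replicate 2 also had more and shorter islands (12649 with a median of 4.6 kb, against 6171 and 8.8 kb in E12.5 replicate 1), and E12.5 replicate 1 covered 42.2% of the remaining E14.5 overlap. The part of these differences in the counts was not tested.

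The same 3 libraries that were met most at the ends also lay nearest by median distance. The median gap to the nearest island was 0.8 kb for E12.5 replicate 2, 8.2 kb for ISC replicate 1 and 26.9 kb for AE replicate 2. It was 56.7 kb for E12.5 replicate 1, 70.8 kb for ISC replicate 2 and 68.8 kb for AE replicate 1. An island of at least 1 other library began directly next to 1667 stretches (76.4%). Only 220 (10.1%) lay farther than 10 kb from every other island, 77 farther than 50 kb and 47 farther than 100 kb. The farthest was 1474 kb away. With every window within 1 kb of another island trimmed off, 1238 pieces with 3.52 Mb were left, while 462 untrimmed stretches (21.2%) lay farther than 1 kb from any other island.

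Just outside the rule were 4056 stretches, 8.31 Mb, that both E14.5 lists and exactly 1 other library covered. That library was ISC replicate 1 for 3.93 Mb, E12.5 replicate 2 for 3.14 Mb, E12.5 replicate 1 for 0.438 Mb, AE replicate 1 for 0.349 Mb, AE replicate 2 for 0.273 Mb and ISC replicate 2 for 0.186 Mb. Their median lengths ran from 0.8 to 2.2 kb. A single E14.5 list and no other library covered 8.17 Mb in replicate 1 and 17.4 Mb in replicate 2. The E14.5-only length is thus smaller than either neighbouring class.

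The islands that hold the stretches were of middling enrichment. The fold, computed by the authors, divides an island's ChIP reads by its control reads after scaling for library size, and it belongs to the whole island, which can reach beyond the stretch. In E14.5 replicate 1 the fold over the 2182 stretches had a median of 1.62, a lowest value of 1.13 and a highest of 4.73. The replicate 2 folds had a median of 1.90 and ran from 1.16 to 6.55. Ranked among all autosomal islands of the same list, the median stretch lay in an island at percentile 55.6 of fold in replicate 1 and 65.2 in replicate 2. Ranks in both lists went together, with a Spearman's rho of 0.771 over 2182 stretches and 0.609 over the 342 free-standing ones. These are given as a description, since neighbouring stretches share islands and both folds share 1 control. A fold of at least 2 in both lists was met by 569 stretches (26.1%), and of at least 3 by 100.

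**Figure D3:**
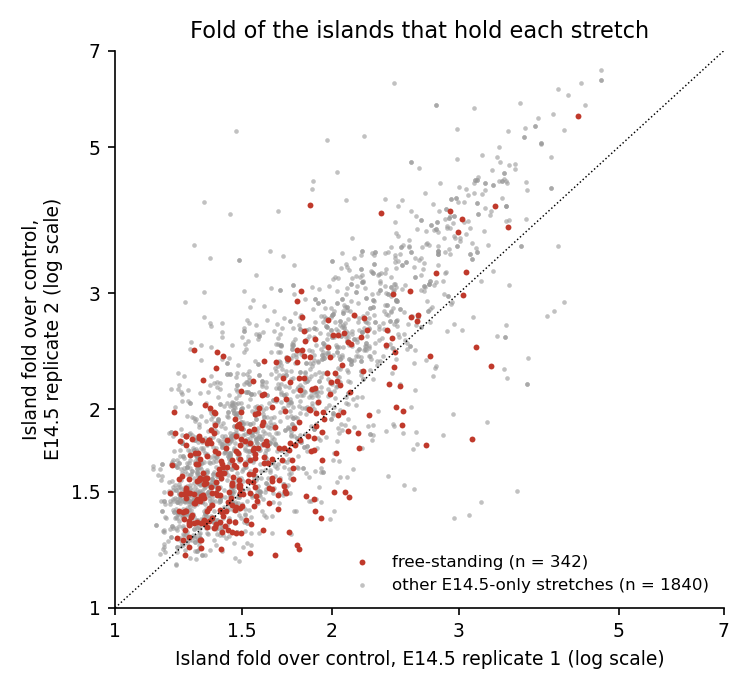
Fold over control of the island that holds each stretch in E14.5 replicate 1 (horizontal axis, log scale) and replicate 2 (vertical axis, log scale), 1 point per stretch, with free-standing stretches in red and the other stretches in grey; the dotted line marks equal folds. Free-standing stretches crowd at the low end (medians of 1.52 and 1.70), and 82.1% of all points lie above the line.

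In the list of E14.5 replicate 1, 1872 of 7847 autosomal islands (23.9%) held a stretch, and in that of replicate 2, 1821 of 9562 (19%). A closer comparison takes only islands that overlap the other E14.5 list, since every holding island does. Both sides still differed in make-up. In replicate 1, islands over length called in all 8 lists were 146 of the 1872 holding islands and 1065 of the 4306 others. In replicate 2 they were 162 of 1821 and 1028 of 4027. The part of this mix in the medians below was not tested. In replicate 1 the holding islands had a median length of 7.6 kb, 222 ChIP reads and a fold of 1.61, against 7.6 kb, 276 ChIP reads and a fold of 1.64 for the 4306 islands without a stretch. In replicate 2 the medians were 9.4 kb, 199 ChIP reads and a fold of 1.87, against 10.0 kb, 261 ChIP reads and a fold of 1.97 for 4027 islands. Both read counts per kb were lower in the holding islands. ChIP reads per kb had medians of 30.0 against 36.3 in replicate 1 and 21.1 against 26.4 in replicate 2, and control reads per kb 19.9 against 23.5 and 19.8 against 23.3. The medians of the holding islands thus lay farther from the others in read density than in fold, and no test was made because the rule used these islands. Unusually high control density was rare: 33 stretches lay in the densest 5 percent of replicate 1 islands and 33 in those of replicate 2.

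Among islands free of other populations, those holding a stretch had higher folds and smaller FDRs than those holding none. In replicate 1, 444 such islands held a stretch, with a median fold of 1.497 and an FDR of 1e-10 or less in 24.8%, against 1.42 and 8.13% for 763 that held none. In replicate 2, 367 held a stretch, with a median fold of 1.68 and 32.2% at that FDR, against 1.49 and 7.86% for 1031 that held none. By the rule, an island free of other populations holds a stretch whenever it overlaps the other E14.5 list. Those holding none were therefore exactly the islands that the other replicate did not call. The difference thus sets calls made in both replicates beside calls made in a single replicate, and nothing about the stretches can be drawn from it. Among islands that touched another population but not the core, median folds were 1.59 with a stretch and 1.49 without in replicate 1. In replicate 2 they were 1.85 and 1.55. Islands that reached the core had the highest folds, with or without a stretch. Those holding a stretch had medians of 2.46 for 146 islands in replicate 1 and 3.09 for 162 in replicate 2. Those holding none had medians of 2.13 for 1065 islands and 2.74 for 1028. The stretch was a small margin of the core-reaching islands that held it, with medians of 5.78% and 5.73% of the island. These classes were not limited to islands that overlap the other E14.5 list, and with that limit no free island without a stretch would be left.

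The core is the length called in all 8 libraries, 1674 autosomal stretches and 11.0 Mb. E14.5-only stretches lay a median of 419 kb from it. For the other length in both E14.5 lists with the core left out, 7683 stretches, the median was 54.2 kb. Of the E14.5-only stretches, 174 (7.97%) lay within 10 kb of the core, 564 (25.8%) within 100 kb and 1505 (69.0%) within 1000 kb, against 39.3%, 55.4% and 84.6% of the other stretches. None of the E14.5-only stretches abutted the core, whereas 2616 of the others did. Both counts follow largely from how the sets were made. An E14.5-only stretch could touch the core only if all lists of other populations ended at the same 200 bp border. Around a core stretch, E14.5-only length can begin only where all those lists have stopped. The rule thus enters the E14.5-only shares close to the core. Leaving out the core cuts the other stretches at its borders and so places them next to it. Among the 5067 others that did not abut the core, 7.91% lay within 10 kb, 32.4% within 100 kb and 76.6% within 1000 kb, with a median of 269 kb. At 10 kb the E14.5-only share thus differed little from theirs, and at 100 and 1000 kb it was lower, with no test made. By position, the medians were 561 kb for free-standing stretches, 447 kb for edges, 265 kb for whole overlaps and 179 kb between called windows. A free-standing stretch cannot lie in an island that reaches the core, so the definition of the classes enters this order. The median distance depends on the extent of the core: it was 254 kb without E12.5 replicate 1, 275 kb without ISC replicate 1, 2113 kb with islands of an FDR of 1e-10 or less and 1594 kb with folds of 1.5 or more.

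**Figure D4:**
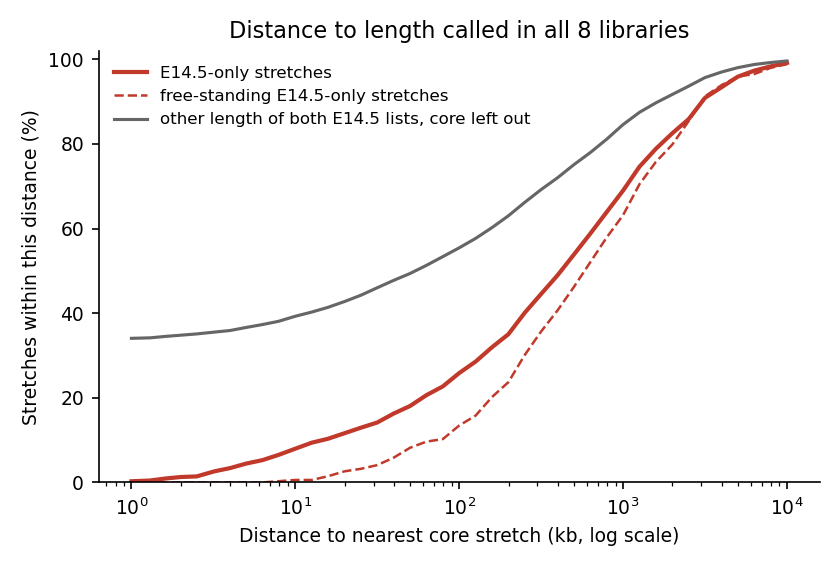
Share of stretches (vertical axis, percent) within a given distance of the nearest core stretch (horizontal axis, kb, log scale) for all E14.5-only stretches, the free-standing ones among them, and the other length in both E14.5 lists with the core left out. The E14.5-only curve reaches 25.8% at 100 kb, where the curve of the other length, which includes the 2616 stretches that abut the core, reaches 55.4%.

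Some stretches lay close to others. Neighbouring stretches on a chromosome were a median of 220 kb apart, but 444 of 2163 gaps (20.5%) were 10 kb or less. Chained at gaps of up to 50 kb, the 2182 stretches formed 1442 groups, of which 999 were single stretches and 33 held 5 or more. These gaps were not set beside those of the other E14.5 overlaps, so grouping is not shown to be particular to this set. Part of this grouping is the cutting of an overlap by islands of other libraries. Of the 1923 E14.5 overlaps that held a stretch, 250 held more than 1.

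The group with the most length lay on chromosome 9, 27978201 to 28130000, with 11 stretches and 41.8 kb in a span of 151.8 kb. E14.5 replicate 1 covered 78.6 kb of that span and replicate 2 covered 97.8 kb. E12.5 replicate 2 covered 36.4 kb, and E12.5 replicate 1, both ISC and both AE lists covered 0 kb. Of its 11 stretches, 1 stood free and the others lay in islands that reached E12.5 replicate 2 islands, so the span as a whole was called in embryonic libraries alone. Folds of the islands that hold them ran from 1.31 to 2.46 in replicate 1 and from 1.58 to 2.92 in replicate 2.

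The second group, on chromosome 7 (131136801 to 131262800), had 8 stretches and 38.6 kb. Both E14.5 lists covered 76.6 and 77.8 kb of it, the E12.5 lists 8.6 and 24.6 kb, and the adult lists 0 kb. Its longest stretch, 10.4 kb, began at 131136801, where a replicate 2 island of 41.2 kb had 1105 ChIP and 743 control reads. On chromosome 3 (34893201 to 35009600), 10 stretches made up 37.4 kb. There the E14.5 lists covered 73.8 and 71.8 kb, the E12.5 lists 0 and 31.0 kb, the ISC lists 5.8 and 5.0 kb, and the AE lists 0 and 4.6 kb. The chromosome 17 group (9812601 to 9947400) had 8 stretches and 36.8 kb, and 5 of its stretches stood free. E14.5 covered 53.8 and 79.8 kb of that span, E12.5 replicate 2 covered 5.2 kb, and the 5 remaining lists 0 kb.

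**Figure D5:**
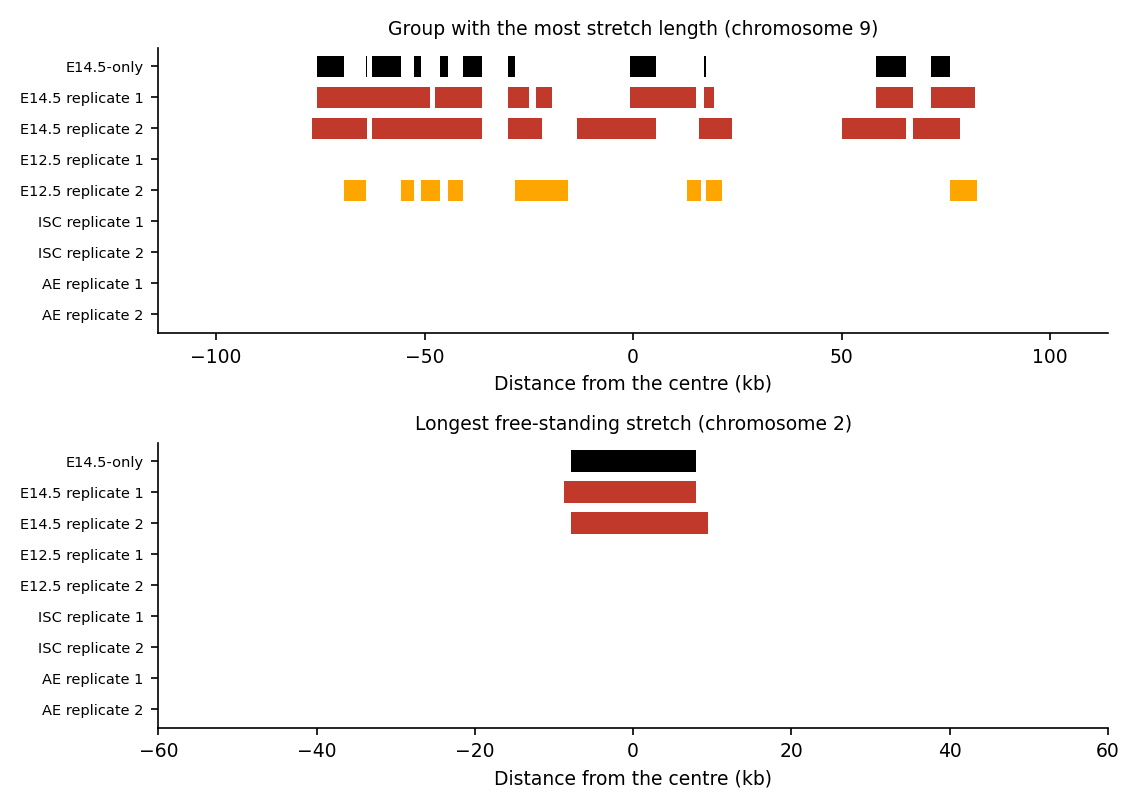
Islands of the 8 libraries (coloured bars) and E14.5-only stretches (black bars) around the chromosome 9 group and around the longest free-standing stretch on chromosome 2, by distance from the centre of each (horizontal axis, kb). In the upper map only E12.5 replicate 2 has islands beside those of E14.5, and in the lower map no other library has one within the 60 kb shown on either side.

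Chromosome 17 had the highest E14.5-only share of the autosomes. It carried 153 stretches and 430.2 kb, which was 16.4% of its length in both E14.5 lists, while chromosome 2 carried more (204 stretches, 450.0 kb) at a share of 8.05%. On the autosomes other than chromosome 17 that share lay between 3.57% (chromosome 19) and 11.4% (chromosome 16), with a median over all 19 of 8.80%. The interval from 9000001 to 10000000 on chromosome 17 held 19 stretches and 81.2 kb, more than any other 1 Mb interval, the next being 42.6 kb on chromosome 3. Of the 162.4 kb that both E14.5 lists covered there, 50% was E14.5-only, and without that interval the chromosome stood at 14.2%. In this interval E14.5 covered 215 and 313.6 kb, E12.5 covered 27.8 and 52.6 kb, ISC 82.4 and 5.2 kb, and AE 11.8 and 16.0 kb. Both E14.5 libraries covered more there than each other library, which picking the interval by its E14.5-only length favours. Folds of the islands around its stretches had medians of 1.37 and 1.73, against 1.62 and 1.90 over all E14.5-only stretches. This interval was singled out after its values were seen.

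The longest stretches were of different kinds. Of the 10 longest, 5 stood free and 3 abutted another island. At the top was chromosome 2, 9177801 to 9193600, 15.8 kb, which stood free. In E14.5 replicate 1 its island of 16.6 kb had 489 ChIP and 216 control reads and a fold of 2.43 (exact binomial 95% interval 2.07 to 2.87, counting error only). In replicate 2 an island of 17.4 kb had 388 ChIP and 227 control reads and a fold of 2.99 (2.53 to 3.54). The nearest island was 599 kb away in E12.5 replicate 1 and 161 kb in E12.5 replicate 2, 315 and 346 kb in the ISC lists, and 455 and 494 kb in the AE lists.

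Equally long was chromosome 8, 19916801 to 19932600, but its islands were among the weakest. Replicate 1 had 2716 ChIP and 2505 control reads and a fold of 1.16, and replicate 2 had 904 ChIP and 1289 control reads and a fold of 1.23. Control reads stood at 68.1 and 81.6 per kb, against medians of 19.9 and 19.8 per kb for the holding islands of these lists. Islands of both AE libraries lay 1.6 kb away. The part of the control density in this call was not tested.

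The next longest were edges of large islands. Chromosome 11, 116995601 to 117010800 (15.2 kb), was the margin of islands of 59.4 and 36.2 kb with folds of 1.47 and 2.08, and an E12.5 replicate 1 island began next to it. Chromosome 15, 77565801 to 77579800 (14.0 kb), lay in islands of 23.2 and 27.6 kb with folds of 1.70 and 2.51, next to an AE replicate 2 island. Its nearest E12.5 islands were 184 and 122 kb away.

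Among the other free-standing stretches, enrichment and isolation varied. Chromosome 15, 91720401 to 91732800 (12.4 kb), had 366 ChIP and 199 control reads in replicate 1 (fold 1.97, 1.66 to 2.36) and 481 and 339 in replicate 2 (fold 2.48, 2.16 to 2.86), and no other island within 143.8 kb. Chromosome 10, 21220201 to 21233800 (13.6 kb), had folds of 1.67 and 1.88 with an E12.5 replicate 2 island 2.4 kb away. Chromosome 14, 35349601 to 35360200 (10.6 kb), had folds of 1.65 and 2.01, and its nearest island lay 6.0 kb away in E12.5 replicate 2. The stretches on chromosome 3 (34903401 to 34917400, 14.0 kb) and chromosome 1 (156128801 to 156140000, 11.2 kb) were weak, with folds of 1.28 and 1.38 for the first and 1.29 and 1.34 for the second. Their intervals in replicate 1 began at 1.098 and 1.079. The last 2 of the 10 longest lay on chromosome 17 and did not stand free. The stretch from 9362601 to 9374800 (12.2 kb, folds 1.46 and 1.74) had an ISC replicate 1 island 1 kb away. The stretch from 34551201 to 34562800 (11.6 kb, folds 1.38 and 1.53) abutted an E12.5 replicate 2 island.

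Among the 247 stretches of 5 kb or more, those with the highest folds were either margins of strong shared islands or short islands of their own. Chromosome 5, 42126201 to 42131200 (5.0 kb), lay in islands of 35.6 and 37.2 kb with 2373 and 2167 ChIP reads and folds of 3.86 (3.54 to 4.215) and 5.53 (5.07 to 6.03). Its core distance was 8.0 kb, and E12.5 replicate 2, ISC replicate 1 and AE replicate 1 islands abutted it. Chromosome 12, 34657201 to 34662400 (5.2 kb), was alike, with islands of 32.0 and 38.0 kb, folds of 3.83 and 5.38 and the core 12.6 kb away. Chromosome 5, 19117601 to 19124400 (6.8 kb), with folds of 3.49 and 4.07, abutted an E12.5 replicate 2 island and lay 2724 kb from the core.

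The other 3 of this kind stood free. Chromosome 5, 13508201 to 13513800 (5.6 kb), had 209 ChIP and 74 control reads in replicate 1 and 122 and 55 in replicate 2, with folds of 3.03 (2.32 to 4.01) and 3.88 (2.80 to 5.44). No island of another library lay within 510.8 kb of it. A pair lay on chromosome 11, 40248801 to 40254600 (5.8 kb, folds 3.07 and 3.24) and 39769201 to 39774800 (5.6 kb, folds 2.91 and 4.01), at 4170 and 4156 kb from the core. E12.5 replicate 2 had an island 1.6 kb from the first. All adult lists had islands near the second, at 4.0 and 6.2 kb in AE replicates 1 and 2 and at 6.8 and 4.6 kb in ISC replicates 1 and 2. Control reads were sparse at all 3 of these sites, 8.62 to 10.0 per kb in replicate 1 and 8.83 to 9.22 per kb in replicate 2, below the holding islands' medians of 19.9 and 19.8. In all, 41 of the 342 free-standing stretches (12.0%) had a fold of at least 2 in both libraries, against 26.1% of all stretches. A fold of at least 3 in both was met by 5 of them (1.46%), against 4.58% of all stretches.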

How the data were processed

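H3K27me3 ChIP-seq libraries of E14.5, E12.5, ISC and AE cells (2 each) were analysed; the 4 inputs enter only through the control column. SICER 1.1, SAMtools 1.2, Bowtie 1.1.2 and bcl2fastq 1.8.4 are named with build mm9 in the submitters' processing notes; settings are not given in the sources used here. The lists have no header, and columns were read from their values. The deposited ChIP and control read counts per island are whole numbers, not normalized. The deposited ratio (fold) divides ChIP by control reads and carries 1 scaling for library size per list. The p-values and false discovery rates (FDR, none above 0.01) are the authors' own. Islands were called for each replicate separately. Total reads per library are unknown, so no count test across libraries was possible.

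Using Python 3.11.15, each list was laid on the 200 bp grid with numpy 2.4.6 and pandas 2.3.3, after the code recovered planted stretches in simulated lists. Autosomes only were used, and coordinates are 1-based. Distances are free bases between features. Members, rules and lists were chosen with earlier results of these data known. Regions named are the 10 longest stretches, the 6 of 5 kb or more with the highest lower fold, the 6 longest free-standing ones and the 4 groups, chained at 50 kb, with the most length. Intervals of folds are Clopper-Pearson 95% intervals of the ChIP share (scipy 1.17.1) and cover counting error only. Genes and sequences were not used, since the tables given are on another assembly than the islands. Alternatives were stricter islands, equal covered length, merging, a minimum length, a margin, chromosome X and each library left out.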

Additional observations from a re-analysis of the deposited data

Results flagged for a closer look

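Chromosome X was outside the rule but carried many such stretches. Of the 1214.6 kb of chromosome X that both E14.5 lists covered, 47.8% (203 stretches, 580.8 kb) was in no other list, against 8.8% on the autosomes. The same rule gave 6.49% of 154.2 kb at E12.5, 0% of 27.2 kb in ISC and 3.24% of 123.6 kb in AE. On chromosome X, E14.5 replicate 1 covered 2.24 Mb and replicate 2 covered 3.16 Mb, while the 6 other lists covered from 0.183 Mb (ISC replicate 2) to 1.06 Mb (E12.5 replicate 2). Folds of the E14.5 islands around these stretches had medians of 2.00 and 2.21. Both adult populations came from males, and the labels give no sex for the embryos. The part of sex in this difference was not tested.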

How the results depend on the processing

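The number, length and share were recomputed under 7 other settings, the free-standing share and core distance under 4 (not for merging, trimming or chromosome X), and all without each library in turn. Merging across gaps of up to 600 bp left 2182 stretches and 4.91 Mb, since no gap between neighbours was that short. Only 2 of 2163 gaps were 1 kb or less, so this setting had nothing to merge and is no check of the result. The number of stretches was 1396 with islands of an FDR of 1e-10 or less, 1448 with a minimum of 1 kb and 1238 pieces with windows within 1 kb of other islands trimmed off, and 2281 to 6176 with 1 library left out. The length was 4.02 Mb at that FDR, 3.82 Mb with folds of 1.5 or more, 4.46 Mb with lists cut by fold to the length of the shortest, 4.595 Mb with the minimum, 3.52 Mb after trimming, 5.49 Mb with chromosome X, and 5.09 to 22.3 Mb with 1 library left out. Of the 4.91 Mb, 1.91 Mb were found again at that FDR, 2.44 Mb at that fold and 2.75 Mb at equal length. With 1 library left out all 4.91 Mb were found again, since leaving out a list can only add length under this rule. The share of the length in both E14.5 lists was 10.7%, 10.1%, 10.7%, 8.23%, 6.32% and 9.63% in the same order of settings, and 9.13 to 21.1% with 1 library left out. The free-standing share was 18.9% at that FDR, 13.5% at equal length and 23.3% with the minimum, and 15.2 to 34.1% with 1 library left out. The median core distance was 2113, 1594 and 537 kb in the first 3 settings, where stricter lists also shrink the core, and 254 to 479 kb with 1 library left out. No paired analysis was possible because no result comes from a test and the lists hold no reads outside each library's own islands.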
